A study of Mus musculus with 3 samples.

Results

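Hepatocytes, the parenchymal cells of the liver, were followed in single-cell RNA profiles of mouse liver after irradiation. They were selected on their own transcripts. A cell barcode with at least 500 unique molecular identifiers (UMIs, each counting 1 captured transcript), at least 250 genes and at most 50% mitochondrially encoded UMIs was kept. Among these, a cell was taken as a hepatocyte where Alb, Apoa1, Apoa2, Ttr and Serpina1c together made up at least 3% of its UMIs and the leukocyte gene Ptprc had 0 UMIs. This gave 84 hepatocytes of 21193 cells that passed the filter, from 22872 barcodes in all.

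The study prepared 3 libraries, 1 per group, with droplet 3′ chemistry (10x Genomics Chromium), so the spread between animals is unknown and no group could be tested against another. The library GsdmdFL/FL -Ctrl came from a mouse liver with floxed Gsdmd alleles and no irradiation. The library GsdmdFL/FL -IR came from a floxed liver taken 7 days after 30 Gy. The library Gsdmd∆Hep-IR came from a liver with a hepatocyte deletion of Gsdmd, taken 7 days after the same dose, and its genotype label names a knockout without naming hepatocytes. Both floxed libraries carry the genotype label WT. The deletion was profiled after irradiation only, so genotype and response to irradiation cannot be told apart for it. The Cre driver, the exons removed, the part of the body exposed, the strain, age and sex of the mice, and whether a library holds 1 animal or a pool are not given in the sources used here.

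Hepatocytes make most of the proteins of blood plasma, clear ammonia through the urea cycle, synthesise bile acids and detoxify drugs with cytochrome P450 enzymes. Along the liver lobule they divide this labour, with urea and glucose synthesis strongest near the portal vein and glutamine synthesis and many P450 enzymes strongest near the central vein. During inflammation, cytokines such as interleukin 6 and interleukin 1 act through STAT3 and C/EBP transcription factors to raise a set of secreted acute-phase proteins, of which the serum amyloids Saa1 and Saa2 are the best known in mice. Gsdmd encodes gasdermin D, whose cleaved fragment forms membrane pores in pyroptosis.

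The promoters of the neighbouring genes Saa1 and Saa2 are shown because of their per-cell levels in the results below. Among cells with a barcode of their own, these levels did not overlap between the irradiated libraries. How many of all genes compared lack overlap in this way was not counted. By the GENCODE annotation of mm10, Saa1 lies at chr7:46740497-46742980 and Saa2 at chr7:46751790-46754313. The stretches run from 250 to 51 bases before the RefSeq start on GRCm38.p6, which for Saa2 lies inside the GENCODE gene given above and not at its start. They lie at chr7:46743031-46743230 on the minus strand for Saa1 and chr7:46751583-46751782 on the plus strand for Saa2. Capitals mark the letters TTGCNNAA, a core of C/EBP binding motifs, searched on both strands.
Saa1: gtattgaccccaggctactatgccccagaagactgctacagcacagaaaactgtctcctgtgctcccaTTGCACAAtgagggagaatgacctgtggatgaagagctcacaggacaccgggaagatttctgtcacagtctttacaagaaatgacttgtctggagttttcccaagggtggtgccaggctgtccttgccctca
Saa2: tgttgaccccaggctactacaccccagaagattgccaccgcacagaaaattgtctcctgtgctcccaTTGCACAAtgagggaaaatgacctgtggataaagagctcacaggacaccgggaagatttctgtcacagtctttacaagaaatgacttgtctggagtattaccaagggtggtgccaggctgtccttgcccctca
The match lies 182 to 175 bases before the RefSeq start in Saa1 and 183 to 176 bases before that of Saa2. The 2 stretches are identical at 188 of 201 aligned positions (93.5%). The same letters occur in 2664 of 32851 promoter windows of this length (8.11%), so a match is a description and not a site. Reads from near-identical members of a gene family can be hard to assign in counting. The values of single members of the Saa, Mup and Serpina1 families are therefore uncertain. How alike their transcripts are, and how many such reads were counted, was not measured here.

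Hepatocytes were rare in every library. GsdmdFL/FL -Ctrl held 43 of 6712 cells (0.641%, 95% Clopper-Pearson interval 0.464 to 0.862), GsdmdFL/FL -IR held 27 of 6851 (0.394%, 0.260 to 0.573) and Gsdmd∆Hep-IR held 14 of 7630 (0.184%, 0.10 to 0.31). These intervals, and all those below, are 95% intervals that cover counting error only. The shares describe which cells were captured in these suspensions after dissociation, and fewer hepatocytes in the liver and fewer surviving dissociation cannot be told apart. The fall in share across the libraries lay in cells with few mitochondrial transcripts, as given below. The hepatocytes held 545800, 481909 and 93827 UMIs, with a median of 3334, 6409 and 1546 per cell. A single cell supplied 37.8% of the hepatocyte UMIs of GsdmdFL/FL -Ctrl, 21.2% in GsdmdFL/FL -IR and 72.4% in Gsdmd∆Hep-IR, so pooled levels of the last library are largely those of 1 cell with 67919 UMIs.

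Several of these cells share a barcode with a cell of another library. Of the 14 hepatocytes of Gsdmd∆Hep-IR, 7 carry the barcode of a far deeper cell of GsdmdFL/FL -IR, with between 1.28% and 2.14% of its UMIs, and 91.6% to 96.3% of the genes they hold are detected in that deeper cell. In GsdmdFL/FL -Ctrl, 1 hepatocyte of 1001 UMIs carries the barcode of the 67919-UMI cell of Gsdmd∆Hep-IR. Why barcodes are shared was not tested. The 8 cells are kept in the sums, where they hold 7.87% of the Gsdmd∆Hep-IR UMIs and 0.183% of the GsdmdFL/FL -Ctrl UMIs, but the ranges per cell of genes and gene lists below are of the 42, 27 and 7 cells with a barcode of their own. Without them the share of hepatocytes in Gsdmd∆Hep-IR is 0.0917%.

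The cells carried hepatocyte transcripts that the selection did not use. A set of 12 other hepatocyte markers, among them Apoh, Fgb, Gc, Serpina3k and Cps1, made up 5.85%, 7.74% and 11.5% of hepatocyte UMIs against 0.0594%, 0.0634% and 0.0317% in the other cells of the same libraries, and all 12 were detected in each. Markers of endothelial cells reached at most 0.0235% and those of Kupffer cells at most 0.0064% of hepatocyte UMIs, and no UMI of a B or T cell marker was seen in either irradiated library. Neutrophil markers, taken as 8 genes, were at 0.00403%, 0.0735% and 0.201% in hepatocytes and at 0.455%, 17.5% and 14.7% in the other cells, with 5, 1 and 3 of the 8 at 0 in hepatocytes. Monocyte markers, 6 genes of which hepatocytes also make fibronectin (Fn1), were at 0.0504%, 0.145% and 0.143%. In Gsdmd∆Hep-IR 2 hepatocytes had over 1% of neutrophil marker UMIs, 1 with a barcode of its own at 2.36% and 1 with a shared barcode at 6.61%. The part of RNA from neutrophils in the results was not tested, and free RNA in the droplets was not removed, so levels in the other cells are given below where they come near those of hepatocytes. Of the selection itself, the cells nearest the limit had 3.06%, 3.14% and 3.20% of UMIs from the 5 genes on the inside and 2.99%, 2.90% and 2.57% on the outside.

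The hepatocytes fell into a group with very few mitochondrial transcripts and a group with many. Over all 84 cells, those with a shared barcode included, the median mitochondrial share was 0.278% in GsdmdFL/FL -Ctrl, 0.175% in GsdmdFL/FL -IR and 21.8% in Gsdmd∆Hep-IR, with highest values of 22.9%, 48.5% and 42.9%. Without the shared barcodes the medians were 0.258%, 0.175% and 24.1%. At or below 5% stood 37, 16 and 0 cells, and above it 6, 11 and 14. Of all cells that passed the filter, those at or below 5% made up 0.551%, 0.2335% and 0%. Those above 5% made up 0.0894%, 0.161% and 0.184%, the last being 0.0917% without the shared barcodes. Malat1, a long noncoding RNA held in the nucleus, followed the same split. Cells at or below 5% held 5 Malat1 UMIs in GsdmdFL/FL -Ctrl (26.8 counts per 1000000 UMIs, CPM) and 7 in GsdmdFL/FL -IR (146 CPM), and 32 of the 37 and 15 of the 16 had none. Cells above 5% stood at 3872, 5097 and 1098 CPM, against 10051, 9976 and 7572 CPM in the other cells of the libraries. The cells at or below 5% thus carried hepatocyte messenger RNA with little Malat1 and few mitochondrial transcripts. Whether they were intact cells was not tested. They hold 34.2% of the hepatocyte UMIs of GsdmdFL/FL -Ctrl and 9.94% of those of GsdmdFL/FL -IR, so the mix of the 2 kinds of cell differs between the sums, and values within each kind are given beside several of the results below.

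**Figure D1:**
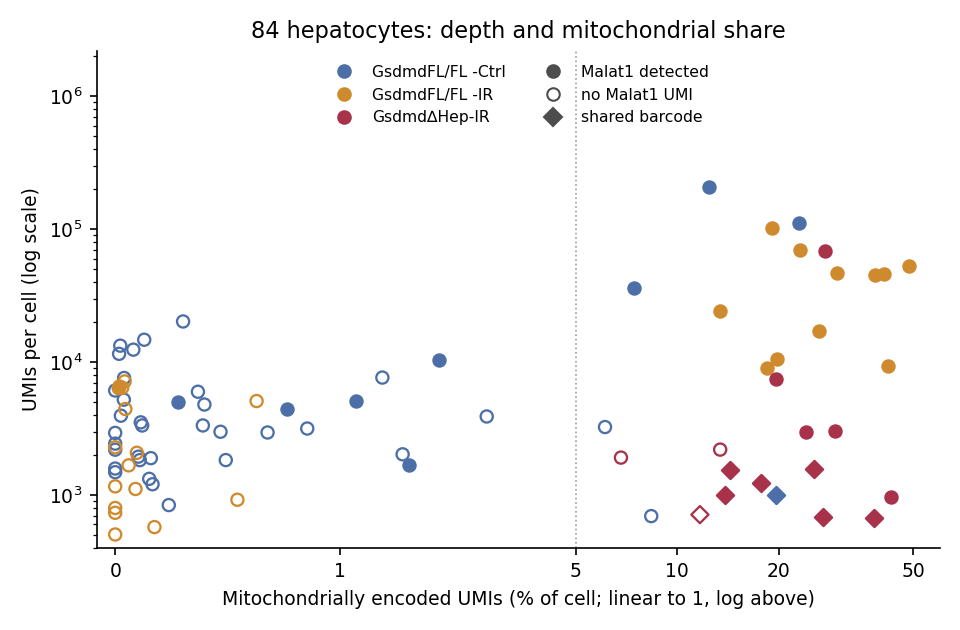
Mitochondrial share (x axis, percent of the cell's UMIs, linear to 1 and log above) and depth (y axis, UMIs per cell, log scale) of the 84 hepatocytes, coloured by library. Filled symbols held a Malat1 UMI, open symbols none, and diamonds share a barcode with a deeper cell of another library. Only GsdmdFL/FL -Ctrl and GsdmdFL/FL -IR have cells left of the dotted line at 5%, nearly all of them open.

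After irradiation, the hepatocytes of the floxed library held more acute-phase transcripts and fewer metabolic transcripts than those of the control. Serpina3n stood at 31.2 times the control level, and the metallothioneins Mt1 and Mt2 at 62.3 and 137 times. Major urinary proteins, 5.52% of the UMIs of control hepatocytes, were at 0.124%. Transcripts for P450 enzymes, bile acid synthesis, fatty acid oxidation and lipid synthesis were lower, and so were most genes typical of the central vein. Transcripts for coagulation factors and for most carrier proteins of plasma stayed within 2-fold.

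The comparison used 2046 genes with at least 50 UMIs over both libraries. A gene was called higher or lower where the CPM ratio of the summed counts was at least 2-fold with an interval that excluded 1. By this rule 148 genes (7.23% of those compared) were called higher and 851 (41.6%) lower, and the median log2 ratio over all of them was -0.79. The scale matters for that split: with TMM factors, which centre the bulk of the genes, 261 were called higher and 449 lower, and all log2 ratios move up by 0.55. Without the hepatocytes that share a barcode the counts were 149 and 851.

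Acute-phase proteins were mostly higher. Of 26 genes of this list, 24 had enough UMIs, 20 were called higher and 0 lower, with a median log2 ratio of 1.81 beside the -0.79 of all genes. Within the cells at or below 5% mitochondrial share all 13 members with enough UMIs were called higher (median 2.67), and above 5% 17 of 24 were (median 1.44). Without the deepest cell of each library all 24 were called higher. Summed without Mt1 and Mt2, which the list also holds, these genes took a median of 0.611% of a control cell's UMIs, ranging from 0.289% to 3.56%. In irradiated floxed hepatocytes the median was 6.06%, ranging from 0.919% to 10.8%, and 18 of 27 cells lay above the highest control cell.

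Among its members, Hp, the haemoglobin-binding haptoglobin, stood at 4135 CPM in control and 16576 CPM in irradiated hepatocytes, 4.01-fold higher (3.83 to 4.202). Fgb, the beta chain of fibrinogen, was 3.34-fold higher (3.17 to 3.52) and Cp, the copper-carrying ferroxidase ceruloplasmin, 6.60-fold higher (5.93 to 7.36). Serpina3n, a secreted protease inhibitor, had 67 and 1848 UMIs, 31.2-fold higher in CPM (24.5 to 40.5), and in the other cells of the irradiated library it stood at 37.4 CPM against 3835 in hepatocytes. Il1rn, the antagonist of the interleukin 1 receptor, had 0 UMIs in control hepatocytes and 137 after irradiation, at least 51.7-fold higher with the control taken at a floor of 3 UMIs. Il1r1, the receptor itself, was 9.47-fold higher (5.05 to 19.6). Lcn2, an iron-siderophore binding protein, stood at 49.5 and 3746 CPM, but the other cells of the irradiated library held 5857 CPM, above the hepatocytes. Saa3 stood at 346 CPM in irradiated hepatocytes and 312 CPM in the other cells. The 8 neutrophil markers together made up 0.0735% of UMIs in these hepatocytes and 17.5% in the other cells. The part of free RNA in the Lcn2 and Saa3 values was not tested.

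The serum amyloids differed less in the pooled sums. Saa1 stood at 1779 CPM in control and 4225 CPM in irradiated hepatocytes, 2.38-fold higher (2.20 to 2.57), and Saa2 at 993 and 1803 CPM, 1.82-fold (1.63 to 2.02) and under the 2-fold limit. The control level rests on 1 cell, the deepest, which held 783 of the 971 Saa1 UMIs. Without the deepest cell of each library Saa1 was 7.13-fold and Saa2 7.31-fold higher, and in cells at or below 5% mitochondrial share they were 6.38-fold and 7.13-fold higher, against 1.77-fold for Saa1 above 5%. Per cell, Saa1 had a median of 219 CPM in control and 2579 CPM in irradiated hepatocytes, with highest values of 3795 and 6991 CPM, so the libraries overlap.

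Metallothioneins, small zinc- and copper-binding proteins, were higher in the irradiated cells, with ranges that overlap. Mt1 and Mt2 together were at 0 in 34 of 42 control hepatocytes, with a highest value of 1.91% of UMIs. Every irradiated floxed hepatocyte held them, from 0.878% to 9.94%, and 15 of 27 lay above the highest control cell. Pooled, Mt1 was at 201 and 12556 CPM, 62.3-fold higher (51.6 to 75.9), and Mt2 at 33.0 and 4528 CPM, 137-fold higher (86.7 to 232). The other cells of the irradiated library also held 4552 CPM of Mt1, and the part of free RNA in these values was not tested. Slc39a14, a zinc and iron importer of the hepatocyte surface, was 12.4-fold higher (8.33 to 19.1).

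In the CPM sums iron handling was divided by role, a split that depends in part on the scale. Of 9 genes compared 5 were called higher, all of them secreted or membrane proteins: Hp, Cp, Steap4, the haem carrier Hpx at 2.98-fold (2.84 to 3.12) and the iron carrier Trf at 2.17-fold (2.09 to 2.25). The 2 called lower were the ferritin chains that store iron, Ftl1 at 4.94-fold lower (4.51 to 5.42) and Fth1 at 2.30-fold lower (2.13 to 2.48). With TMM factors 6 of the 9 were called higher and 1 lower, so the lower call was not kept for both ferritin chains. Both ferritin chains were lower in irradiated hepatocytes than in the other cells of that library, which held 3061 CPM of Ftl1 and 7854 CPM of Fth1. The part of free RNA in their remaining level was not tested. In cells at or below 5% mitochondrial share the log2 ratio of Fth1 was 0.02, while that of Ftl1 was -1.58, and Trf was 1.17-fold higher there, under the limit.

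**Figure D2:**
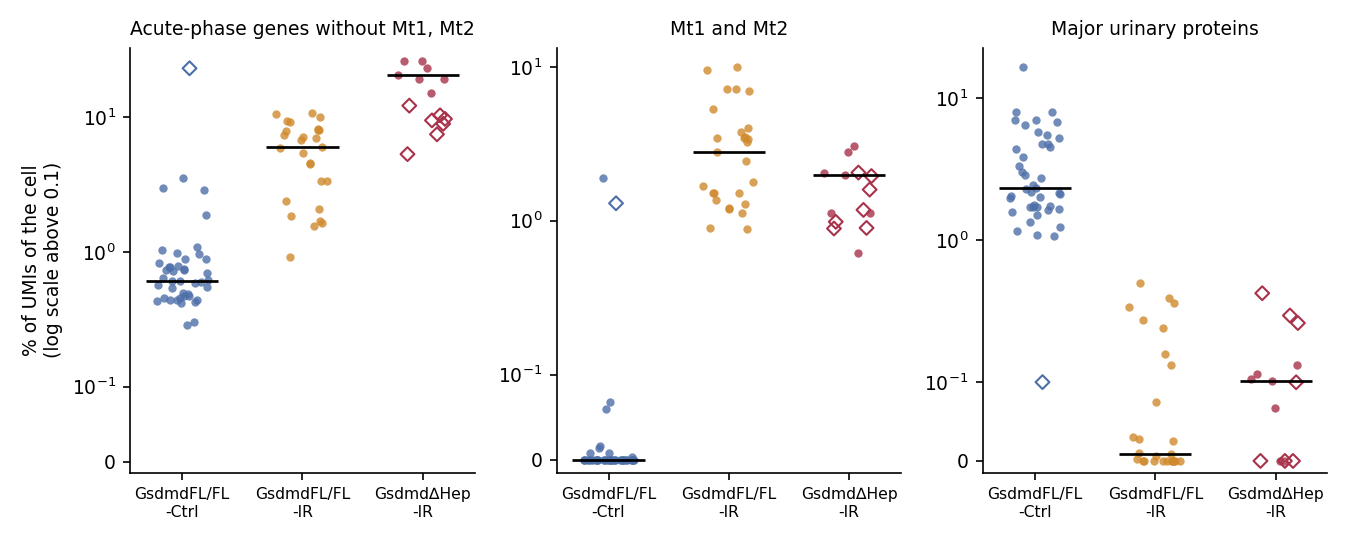
Share of each hepatocyte's UMIs (y axis, percent, log scale above 0.1) from acute-phase genes without Mt1 and Mt2, from Mt1 and Mt2, and from major urinary proteins, by library. Points are cells, open diamonds cells that share a barcode with a deeper cell of another library, and bars the median of the cells with a barcode of their own. Major urinary proteins in irradiated cells lie below every control cell with its own barcode. Among cells with a barcode of their own, the 7 of Gsdmd∆Hep-IR have the highest acute-phase shares.

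Major urinary proteins, the pheromone carriers that mouse liver secretes into blood and urine, had the lowest median of the 17 lists plotted. All 12 members with enough UMIs were called lower, with a median log2 ratio of -5.98, and the median was -6.09 in cells at or below 5% mitochondrial share and -5.98 above it. The family took 1.07% to 16.4% of UMIs in control hepatocytes and 0 to 0.501% in irradiated floxed ones, so that all 27 lay below the lowest control cell. How many of all genes or lists lack overlap in this way was not counted. This also limits the reading of Fabp1 and of the acute-phase shares per cell below. Among the genes named, Car3 also had all 27 below the lowest control cell. Mup20, also known as darcin, stood at 15471 CPM in control and 322 CPM after irradiation, 48.1-fold lower (41.0 to 56.8). Mup3 stood at 13604 and 797 CPM, 17.1-fold lower (15.4 to 18.97). Mup11 had 8713 UMIs in control and 13 after irradiation.

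Other genes that growth hormone pulses drive in male liver were lower as well. Of 15 genes compared on a list of growth hormone and male-biased genes, which includes Mup20 and Mup21, 12 were called lower and 1 higher (median -4.68). Elovl3, a fatty acid elongase, had 580 UMIs in control and 0 after irradiation, at least 171-fold lower, and the steroid enzyme Hsd3b5 had 92 and 0, at least 27.1-fold lower. Igf1, the secreted mediator of growth hormone action, was 4.07-fold lower (3.21 to 5.21). The 1 called higher was Socs2, an inhibitor of growth hormone receptor signalling, at 21.99 CPM in control and 139 CPM after irradiation, 6.32-fold (3.39 to 12.8). Transcripts of the Y-linked genes Ddx3y and Eif2s3y were present in hepatocytes of all 3 libraries, with 18, 22 and 4 UMIs of Ddx3y, and Xist had 0 UMIs in them.

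Genes of the central vein zone were mostly lower, while those of the portal zone were mixed. Of 12 pericentral genes compared, 10 were called lower and 0 higher (median -2.52). Among them Cyp2e1, which oxidises ethanol and paracetamol, stood at 1453 and 351 CPM, 4.14-fold lower (3.50 to 4.92), and Cyp1a2, which metabolises caffeine, had 242 and 3 UMIs, 71.2-fold lower (24.1 to 348). Rgn, a gluconolactonase of the vitamin C pathway, was 37.5-fold lower (21.3 to 73.1). Of 16 periportal genes 4 were called higher and 5 lower (median -0.24, and 0.30 with TMM factors), beside 7.23% and 41.6% of all genes. In cells at or below 5% mitochondrial share 4 of 8 were called higher and 3 lower (median 0.29). The difference between the zones was not tested, and few cells are deep enough to place in a zone. Among 4 control cells with at least 20000 UMIs, the deepest held 421 UMIs of the periportal Cyp2f2 and 78 of Cyp2e1, and the next held 0 and 413. Among 7 such irradiated floxed cells, 1 held 124 UMIs of Cyp2e1 with 0 of Cyp2f2, and the deepest held 44 of Cyp2f2 with 0 of Cyp2e1. Cyp2f2 was 3.84-fold lower in the pooled sums (3.09 to 4.81), but with the deepest cell of each library left out its log2 ratio was 1.15 in the opposite direction, and in cells at or below 5% mitochondrial share it was 1.06-fold higher.

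**Figure D3:**
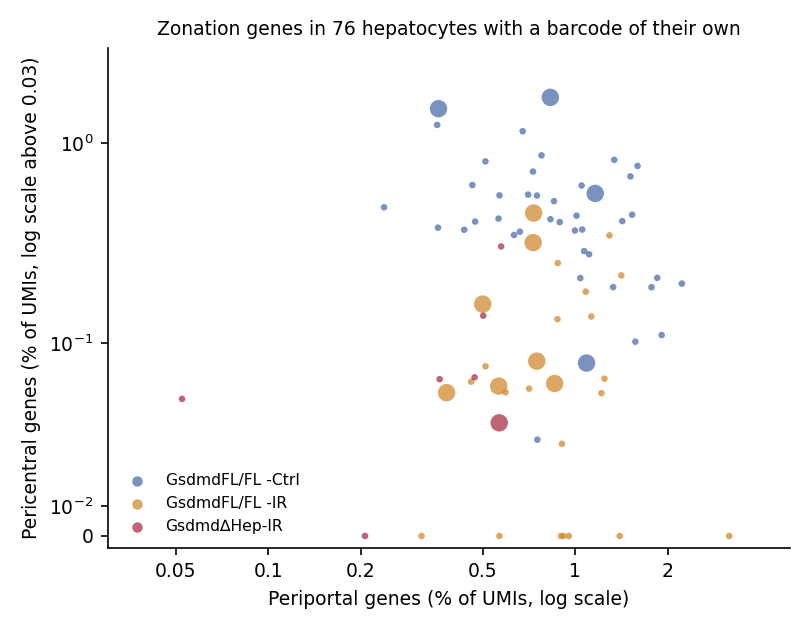
Periportal genes (x axis, percent of UMIs, log scale) against pericentral genes (y axis, percent of UMIs, log scale above 0.03) in the 76 hepatocytes with a barcode of their own, coloured by library. Large points have at least 20000 UMIs. Control cells reach 1.69% pericentral UMIs, irradiated floxed cells 0.446% and Gsdmd∆Hep-IR cells 0.304%, while the periportal ranges of the floxed libraries overlap.

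Most transcripts of drug and bile acid metabolism were lower. Of 20 P450 drug-metabolising genes compared, 14 were called lower and 1 higher (median -1.99), the last being Por, the electron donor that the P450 enzymes share. Cyp3a11, the main drug-oxidising P450 of mouse liver, stood at 1519 and 41.5 CPM, 36.6-fold lower (23.5 to 60.2). In cells at or below 5% mitochondrial share only 3 of these genes could be compared, with a median of -0.52. Of 16 genes of bile acid synthesis and transport 12 were called lower and 0 higher (median -2.15). Cyp8b1, which sets the share of cholic acid, had 123 and 1 UMIs, and Cyp7b1, of the alternative pathway of bile acid synthesis, 222 and 4, 49.0-fold lower (18.9 to 181). Slco1a1, an uptake transporter for bile acids and drugs, had 161 and 2 UMIs.

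Transcripts for both the oxidation and the synthesis of fatty acids were lower. Of 22 PPARalpha targets and genes of fatty acid oxidation 16 were called lower and 0 higher (median -1.42). In cells at or below 5% mitochondrial share 4 of 12 were called lower (median -0.62, against -0.15 over all genes there). Above 5% 11 of 19 were called lower. With TMM factors 9 of 22 were (median -0.87, against -0.24 over all genes), so the number called depends on cell mix and scale. Fabp1, the liver fatty acid carrier, stood at 14718 and 668 CPM, 22.03-fold lower (19.7 to 24.7), with 26 of 27 irradiated cells below the lowest control cell. Of 14 genes of cholesterol and fatty acid synthesis 11 were called lower and 1 higher (median -1.93), with Scd1, the desaturase that makes oleic acid, at 932 and 9 UMIs, and Fasn, fatty acid synthase, 5.24-fold lower (2.95 to 9.99). Scp2, a peroxisomal sterol and lipid carrier, was 7.94-fold lower (7.11 to 8.89).

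Antioxidant enzymes were mostly lower and amino acid enzymes mixed. Of 15 glutathione transferases and antioxidant genes 10 were called lower and 0 higher (median -2.07), including Gsta3 at 22.9-fold (17.8 to 30.0), Gstp1 at 12.6-fold (10.7 to 14.9) and catalase, Cat, at 13.1-fold (10.3 to 16.9). Gpx1, the main peroxidase of the cytosol, was at 183 CPM in irradiated hepatocytes and 875 CPM in the other cells, and the part of free RNA in what remained was not tested. Of 31 genes of amino acid and one-carbon breakdown 14 were called lower and 1 higher (median -0.87, near that of all genes). The share called lower was near the 41.6% of all genes. Bhmt, which remethylates homocysteine, stood at 2499 and 2332 CPM in the sums. Within the cells at or below 5% mitochondrial share it was 2.07-fold higher (1.85 to 2.32), at 4678 and 9684 CPM, and above 5% 1.11-fold higher (0.99 to 1.25).

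The urea cycle and glucose synthesis were mixed. Of 9 urea cycle genes 4 were called lower and 0 higher (median -0.42, and 0.12 with TMM factors), a share called lower near the 41.6% of all genes. Otc was 5.95-fold lower (4.58 to 7.84) and Ass1 3.81-fold lower (3.31 to 4.39), whereas the first enzyme, Cps1, stood at 1312 and 1594 CPM and the last, Arg1, at 901 and 1295 CPM. In cells at or below 5% mitochondrial share 3 of 6 urea cycle genes were called higher and 3 lower, with Cps1 2.94-fold and Arg1 2.04-fold higher, and above 5% 0 of 7 were called higher and 3 lower. Without the deepest cells Cps1 was 2.28-fold higher. In gluconeogenesis, G6pc, which releases free glucose, had 275 and 6 UMIs, Fbp1 was 13.2-fold lower (9.27 to 19.4) and Pck1 2.28-fold lower (1.96 to 2.66, and under the limit in cells above 5% mitochondrial share), while Sds, which turns serine into pyruvate, was 3.38-fold higher (2.46 to 4.70).

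Transcripts of most plasma carriers and coagulation factors stayed within 2-fold. Of 30 carrier and protease inhibitor genes 7 were called higher and 1 lower (median 0.38), and of 14 coagulation factors 0 were called higher and 1 lower (median 0.11). With TMM factors 14 of the 30 were called higher and 0 lower (median 0.92), and 2 and 1 of the 14. Ahsg, the mineral-binding fetuin A, was 2.26-fold higher (2.16 to 2.37), Kng1, the kininogen precursor, 2.69-fold (2.46 to 2.95) and Apoa4, a lipoprotein component induced by fasting and stress, 8.89-fold (5.94 to 13.8). Ahsg was under the limit in both kinds of cell, at 1.83-fold at or below 5% mitochondrial share and 1.92-fold above it. Apoa4 was at 1.95-fold at or below 5% and at 32.2-fold without the deepest cells. Of 19 complement genes 3 were called higher and 7 lower (median -0.79, that of all genes), a share called lower near that of all genes. C3, the component where the pathways meet, was 2.74-fold higher (2.56 to 2.92), and 1.72-fold in cells at or below 5% mitochondrial share. C4b was also called higher. Those called lower included C6, C8a, C8b, C8g and C9, which form the membrane attack complex, with C9 at 297 and 10 UMIs, 26.2-fold (14.1 to 55.2).

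The 12 genes with the highest ratio by the naming rule had diverse roles. Lpl, lipoprotein lipase, had 0 UMIs in control and 218 after irradiation, at least 82.3-fold higher. Cxcl1, a chemokine for neutrophils, had 10 and 320 UMIs, 36.2-fold higher (19.4 to 76.3), and was at 664 CPM in irradiated hepatocytes against 115 CPM in the other cells. Steap4, a metalloreductase of the plasma membrane, was 14.3-fold higher (9.37 to 22.97). Tnfrsf12a, the receptor of TWEAK, was 21.1-fold higher (6.87 to 106) and Tff3, a trefoil peptide, had 1 and 83 UMIs. The 12 also held Il1rn, Mt1, Mt2, Serpina3n, the thyroxine carrier Serpina7 and the kinase Ikbke. At the other end stood Car3, an abundant carbonic anhydrase, with 1919 UMIs in control and 1 after irradiation, together with Elovl3, Mup11, Mup7, Mup16, Mup17, the acyltransferase Keg1, the thiolase Acaa1b, the coenzyme A hydrolase Nudt7, Hsd3b5, the carboxylesterase Ces1f and the fatty acid hydroxylase Cyp4a12a.

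Genes tied to DNA damage were mixed. Of 10 p53 targets with enough UMIs 3 were called higher and 2 lower (median 0.14). Cdkn1a, the cell cycle inhibitor p21, stood at 23.8 CPM in control and 83.0 CPM in irradiated hepatocytes, 3.48-fold (1.83 to 7.10), but at 677 CPM in the other cells of the irradiated library. The other 2, Btg2 and Trp53inp1, were likewise at or below the other cells, at 280 against 587 CPM and 197 against 218 CPM. Only 1 proliferation gene of 25 and 2 interferon-stimulated genes of 32 had enough UMIs, so neither group could be described at this depth. Of 10 immediate early genes that respond to tissue dissociation, 4 were called higher and 0 lower (median 0.89), and their levels, such as 110 CPM of Fos and 189 CPM of Junb, lay below the 754 and 1438 CPM of the other cells. Mitochondrially encoded transcripts were called higher for 12 of 13 genes (median 1.29), with a median of -2.00 in cells at or below 5% mitochondrial share and 0.85 above it.

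**Figure D4:**
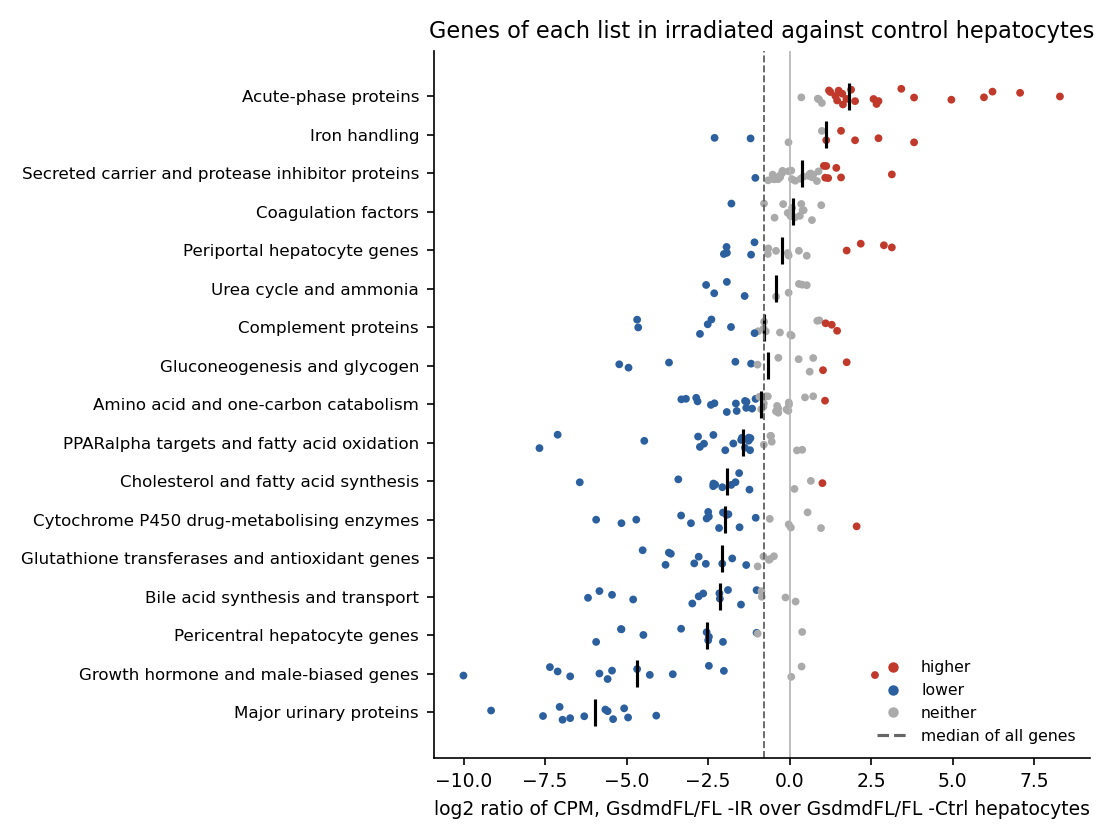
Log2 ratio of CPM in irradiated over control floxed hepatocytes (x axis) for the compared genes of 17 lists (rows). Points are genes, red called higher, blue called lower and grey neither, black bars the list median and the dashed line the median of all 2046 genes at -0.79. Acute-phase genes lie right of it, and the genes of the urinary protein and growth hormone lists reach log2 ratios below -9.

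The comparison of the deletion library with the floxed library after irradiation asks what hepatocyte loss of Gsdmd changes in the irradiated liver. The serum amyloids and several further acute-phase transcripts were higher in Gsdmd∆Hep-IR hepatocytes, with Saa1 at 12.4 times and Saa2 at 21.9 times the level of GsdmdFL/FL -IR hepatocytes. Other acute-phase members, among them Fgb, Cp and Serpina3n, stayed within 2-fold. Further plasma protein and metabolic transcripts, such as Rbp4, Apoc1, Bhmt and Cps1, were lower. The Gsdmd∆Hep-IR sums rest mostly on 7 cells with a barcode of their own, and GsdmdFL/FL -IR is shared with the comparison above, so the 2 are not independent.

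Gsdmd itself could not check the label. It had 20 UMIs in control hepatocytes (36.6 CPM), 2 in irradiated floxed ones (4.15 CPM) and 4 in Gsdmd∆Hep-IR ones (42.6 CPM), and 36.1, 7.23 and 36.9 CPM in the other cells of these libraries. These counts are too few to compare, they stand near the level of the other cells, and the 3′ end that this assay reads may lie outside the deleted exons.

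Over 839 genes compared, 27 (3.22%) were called higher and 251 (29.9%) lower in Gsdmd∆Hep-IR hepatocytes, with a median log2 ratio of -0.63. Without the cells that share a barcode the counts were 29 and 274, and without the deepest cell of each library 19 and 47. Among the cells above 5% mitochondrial share, where all Gsdmd∆Hep-IR hepatocytes lie, they were 24 and 123. As a mean of CPM per cell, which gives each cell the same weight, 91 were at least 2-fold higher and 347 lower. No interval goes with these means, here or below, so they are not calls by the rule above. Each mean takes in all 14 Gsdmd∆Hep-IR hepatocytes. The 7 with a shared barcode hold 7.87% of the UMIs but weigh as much as the 7 with their own.

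Some acute-phase proteins were higher. Of 24 genes 7 were called higher and 0 lower, with 17 neither (median 0.76, against -0.63 over all genes), and 8 without the shared barcodes. Neutrophil markers stood at 0.0735% and 0.201% of hepatocyte UMIs in these libraries, and their part in the acute-phase values was not tested. Per cell, these genes without Mt1 and Mt2 took 15.1% to 26.3% of UMIs in Gsdmd∆Hep-IR hepatocytes, with a median of 20.5%, and all 7 cells lay above the highest GsdmdFL/FL -IR cell at 10.8%. The 7 cells that share a barcode with GsdmdFL/FL -IR had 5.34% to 12.2%, which overlaps the floxed library, and the control cell that shares a barcode with Gsdmd∆Hep-IR had 23.2%.

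The serum amyloids were among the 6 genes with the highest ratio. Saa1 stood at 4225 CPM in GsdmdFL/FL -IR hepatocytes and 52202 CPM in Gsdmd∆Hep-IR ones, 12.4-fold higher (11.7 to 13.02). Per cell, it ranged from 0 to 6991 CPM in the former (median 2579) and from 26627 to 59306 CPM in the latter (median 54003). Saa2 ranged from 0 to 3285 CPM (median 1101) and from 12397 to 74294 CPM (median 41638), 21.9-fold higher in the sums (20.4 to 23.6). In neither gene did the cells with a barcode of their own overlap between the libraries. How many of all genes compared lack overlap in this way was not counted, which also limits the reading of Lcn2 below. Cells of the same library do not replicate its group. The log2 ratio without the deepest cell of each library was 3.09 for Saa1 and 4.40 for Saa2. Where the selection asks for 10% of UMIs from its 5 genes, only Gsdmd∆Hep-IR cells with a shared barcode remain, and the values are -0.25 and -0.03. In the other cells of Gsdmd∆Hep-IR the 2 genes stood at 106 and 105 CPM, far below the hepatocytes. Saa3, a serum amyloid that macrophages also make, was at 346 and 9198 CPM in hepatocytes, 26.5-fold higher (22.5 to 31.5), and at 1943 CPM in the other cells of the deletion library.

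Further secreted defence proteins were higher as well. Orm2, a form of the drug- and lipid-binding orosomucoid, had 48 and 285 UMIs, 30.5-fold higher in CPM (22.4 to 42.3), and its homologue Orm1 was 2.79-fold higher (2.62 to 2.96). Lcn2 ranged per cell from 0 to 6511 CPM in GsdmdFL/FL -IR and from 12397 to 25255 CPM in Gsdmd∆Hep-IR, without overlap, 5.49-fold higher in the sums (5.14 to 5.86). The other cells of the 2 libraries held 5857 and 5876 CPM of it, so of the irradiated libraries the hepatocytes stood above the other cells in Gsdmd∆Hep-IR alone. Hpx was at 12814 and 48163 CPM, 3.76-fold higher (3.62 to 3.91). Lrg1, a glycoprotein induced by interleukin 6, was 2.21-fold higher (1.99 to 2.46) and C3 2.07-fold (1.94 to 2.21), the latter with a log2 ratio of 0.17 without the deepest cells.

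The rest of the acute-phase list stayed under the 2-fold limit. Hp was 1.99-fold higher (1.91 to 2.07), Fgb 1.58-fold (1.497 to 1.67), Cp 1.82-fold (1.68 to 1.97), Serpina3n 1.83-fold (1.68 to 2.01) and Il1rn 1.57-fold (1.09 to 2.24). Metallothioneins did not differ past 2-fold, with Mt1 at 12556 and 10764 CPM and Mt2 at 4528 and 2995 CPM. Major urinary proteins took 0 to 0.132% of UMIs per Gsdmd∆Hep-IR cell, within the range of GsdmdFL/FL -IR, and Mup20 stood at 322 and 309 CPM.

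**Figure D5:**
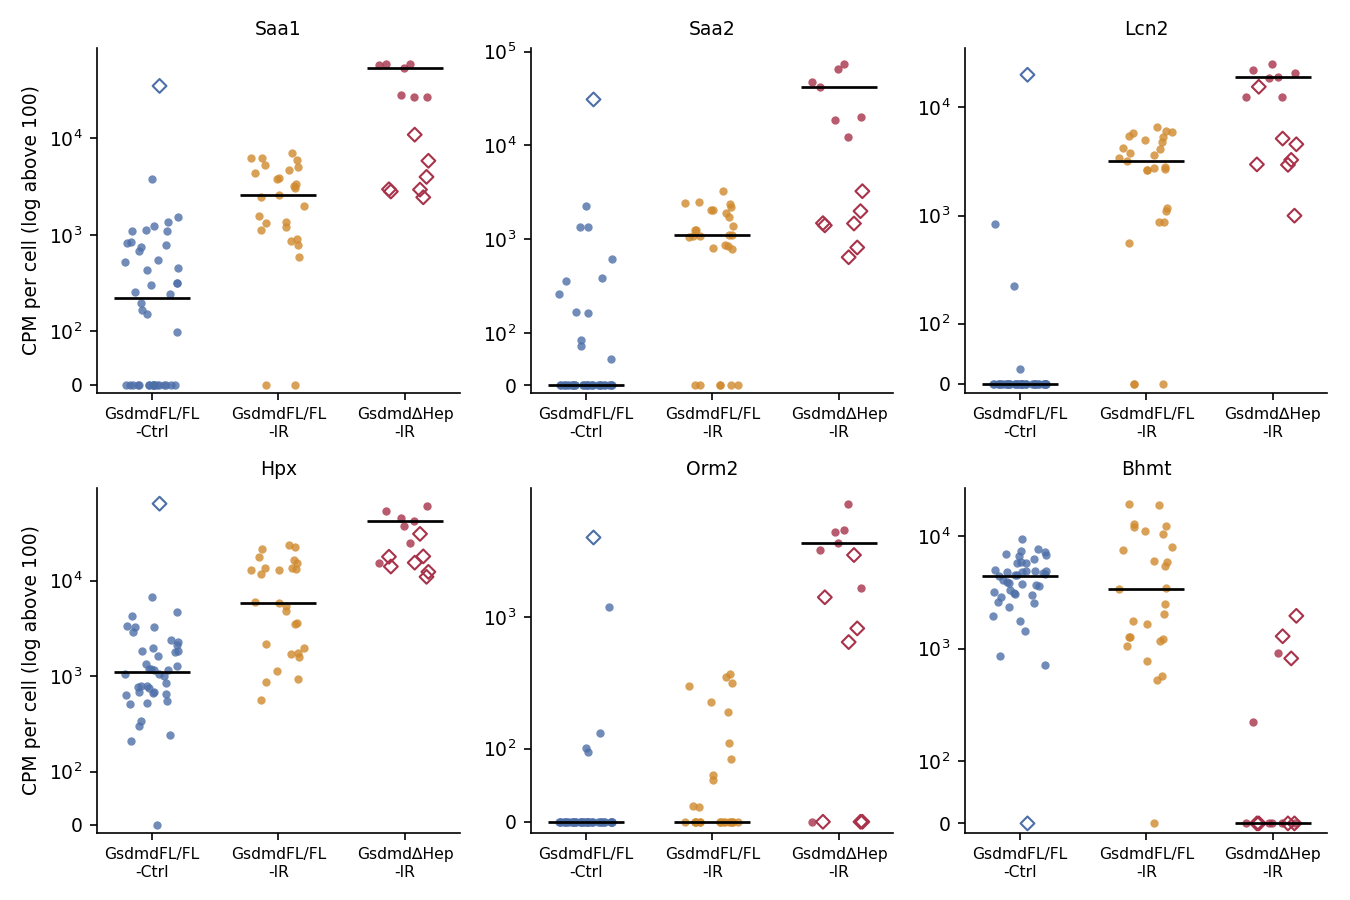
CPM per hepatocyte (y axis, log scale above 100) of Saa1, Saa2, Lcn2, Hpx, Orm2 and Bhmt by library. Points are cells with a barcode of their own, open diamonds cells that share a barcode with a deeper cell of another library, and bars the median of the points. For Saa1, Saa2 and Lcn2 the 7 Gsdmd∆Hep-IR points lie above all points of GsdmdFL/FL -IR, and most diamonds of Gsdmd∆Hep-IR lie within its range.

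Other transcripts were lower in the deletion library, from few UMIs. Of 30 carrier and protease inhibitor genes 10 were called lower and 1 higher (median -0.47), a share near the 29.9% of all genes. Without the deepest cells 4 were called lower and 1 higher. As a mean of CPM per cell, shared barcodes included, 2 were at least 2-fold lower and 6 higher (median 0.38). Rbp4, the retinol carrier, stood at 4520 and 671 CPM, 6.73-fold lower (5.24 to 8.79), and per cell at 0 to 22652 CPM and 0 to 1047 CPM, ranges that overlap. Without the deepest cells it was 2.81-fold lower. Apoc1, a small apolipoprotein, was 3.35-fold lower (2.91 to 3.88) in the sums, with a log2 ratio of -0.39 without the deepest cells. Ahsg was 2.20-fold lower (1.997 to 2.42), and 1.75-fold without the deepest cells, under the limit. Bhmt had 1124 and 23 UMIs, 9.52-fold lower (6.31 to 15.1), and 5 of the 7 Gsdmd∆Hep-IR cells held none, with a log2 ratio of -2.93 without the deepest cells. Among cells above 5% mitochondrial share, where all Gsdmd∆Hep-IR hepatocytes lie, it was 6.20-fold lower. Cps1 was 3.18-fold lower (2.37 to 4.37), and 1.65-fold without the deepest cells, under the limit.

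Beside the 29.9% called lower and the median of -0.63 over all genes, 5 of 8 genes of fatty acid oxidation were called lower (median -1.40), 6 of 11 P450 genes (median -1.07), 7 of 17 amino acid genes with 1 higher (median -0.85), and 5 of 12 antioxidant genes with 1 higher (median -0.80). Without the deepest cells the numbers lower were 2 of 6, 2 of 10, 4 of 17 and 1 of 11. As a mean of CPM per cell 2 P450 genes were at least 2-fold lower and 1 higher, without an interval. Their median was 0.62, in the opposite direction. By the same measure 8 of 8, 12 of 17 and 8 of 12 of the other lists were lower. These means give the 7 cells with a shared barcode the weight of the 7 with their own, so they do not describe the latter alone. Cyp2e1 had 169 and 12 UMIs, 2.74-fold lower (1.53 to 5.41), and its log2 ratio was 0.11 without the deepest cells. Of 8 immediate early genes of dissociation 6 were called lower and 0 higher (median -1.39), and none of the 13 mitochondrially encoded genes was called. The lowest ratios by the naming rule were those of Tff3 (83 and 0 UMIs, at least 5.39-fold lower), Cyp2d9 (84 and 1), Bhmt, Igfbp2 (256 and 5), Mif (59 and 1) and Hspd1 (97 and 2), of which Mif and Hspd1 were not called without the deepest cells.

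A few metabolic genes were higher instead. Fbp1, the fructose bisphosphatase of glucose synthesis, had 33 and 57 UMIs, 8.87-fold higher in CPM (5.68 to 14.1), at 68.5 and 608 CPM beside 903 CPM in control hepatocytes. Got1, the cytosolic aspartate aminotransferase, was 5.32-fold higher (3.05 to 9.28), Cpb2, the carboxypeptidase that slows fibrin breakdown, 2.74-fold (2.03 to 3.67), Igf1 2.48-fold (1.66 to 3.64) and H2-Q10, a class I molecule that liver secretes, 2.36-fold (1.91 to 2.90). Without the deepest cells Got1, Igf1 and H2-Q10 were not called. On the list of glucose synthesis and glycogen 0 of 5 genes compared were then called higher and 3 lower. The higher call of Fbp1 was thus not kept either.

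Against the unirradiated control, which is shared with the first comparison, Gsdmd∆Hep-IR hepatocytes had 78 of 1449 genes called higher (5.38%) and 932 lower (64.3%), with a median log2 ratio of -1.52. Of 23 acute-phase genes 21 were called higher and 0 lower (median 3.19), with Saa1 at 29.3-fold (27.4 to 31.5), and Saa2 at 39.8-fold (36.4 to 43.7). Hpx, which is on the carrier and iron lists and not on this one, was 11.2-fold higher (10.6 to 11.8). All 12 major urinary proteins were called lower (median -5.41), as were 10 of 11 pericentral genes (median -4.16). For GsdmdFL/FL -IR against the same control the corresponding medians were 1.81, -5.98 and -2.52, and because the control is shared these values are given side by side only.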

How the data were processed

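UMI counts per gene and barcode, deposited by the authors as raw whole numbers without normalization for 31253 genes in 3 libraries, were used. Per the submitters' processing notes they were made with Cell Ranger 6.1.1 on mm10, and the notes also name CASAVA 1.8 and Seurat 4.0.3. The role of Seurat and the annotation version are not given in the sources used here. Per the labels' protocols the kit was Chromium Single Cell 3′.

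Hepatocytes were selected as stated above. Raw counts were summed per library over the selected cells and scaled to CPM. With 1 library per group there is no test and no p-value. Ratios carry exact conditional intervals, sums exact Poisson and shares Clopper-Pearson intervals, all at 95%. Log2 ratios have a prior of 0.5 UMIs, and a library at 0 takes a floor of 3 UMIs per library. Ratios worded as at least a given fold rest on this floor and are not limits of the 95% interval. The 5 selection genes and Ptprc were left out. Scrublet in scanpy 1.11.5, at an expected rate of 6%, marked 155, 235 and 295 cells as doublets, of which 0 were hepatocytes, so none were removed. Free RNA was not removed.

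The selection, the 30 gene lists and the markers were chosen with earlier results of these data known. Of 627 list genes 8 were not matched. The rule for named genes takes the 12 highest and 12 lowest ratios in irradiated against control cells and the 6 and 6 in the deletion comparison, among genes with a UMI in at least 10% of the hepatocytes of 1 library and at least 2 times the level of the other cells where they are higher, and up to 6 members of each list; further members were named for their role, and a few genes that the rule takes are not reported here. Gene coordinates are from GENCODE on GRCm38 (mm10). Computations used Python 3.11.15, scipy 1.17.1 and, for TMM factors, edgeR 4.0.16 in R 4.3.3; promoters were aligned with Biopython 1.88. The calculation was tested on simulated counts. Alternatives covered depth, mitochondrial share, the selection limit, doublets, markers of other cells, scaling and the gene minimum.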

Additional observations from a re-analysis of the deposited data

How the results depend on the processing

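No paired analysis was possible because each group has 1 library. Of 223 values recomputed for the shares, the counts of genes called and the list medians, 178 kept within their limits and 45 moved; of 1806 ratios of named genes under the alternatives, 1626 kept direction and call, 108 fell below the limit, 43 passed it, 26 turned and 3 without a call moved. Scaling, a stricter mitochondrial limit, 1000 UMIs per cell, markers of other cells, doublets and most selection limits were planned; 4 alternatives, the split at 5% mitochondrial share into 2, the deepest cell left out and the shared barcodes left out, were added after seeing the data. For all changes below the cause was not tested beyond what a setting removes.

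Requiring 10% of UMIs from the 5 genes leaves 1 control cell of 1692 UMIs, 11 of GsdmdFL/FL -IR and 5 of Gsdmd∆Hep-IR, all 5 with a shared barcode, so it removes every Gsdmd∆Hep-IR cell with a barcode of its own, and 79 gene ratios have no value. The shares are then 0.0149%, 0.161% and 0.0655%, and 0.179% in control at a limit of 5%. The calls, higher and lower, are 22 and 48 in GsdmdFL/FL -IR against control, 16 and 1 in the deletion comparison, and 15 and 0 in Gsdmd∆Hep-IR against control. The medians of acute-phase and P450 genes in GsdmdFL/FL -IR against control are 1.25 and -0.25. Turned ratios between the irradiated libraries under this limit, as log2, are Saa1 -0.25, Saa2 -0.03, C3 -0.35, Ftl1 0.12, Ahsg 0.18, Apoa4 0.73, Rbp4 0.06, Cps1 0.43, Ass1 0.06, Fabp1 0.13, Gstp1 0.27, Cat 0.97, Serpina7 1.08, Btg2 0.01, Trp53inp1 0.61, Igfbp2 0.56 and Apoc1 0.23, and against control Junb -3.04.

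With the shared barcodes left out the Gsdmd∆Hep-IR share is 0.0917%. Counts given as a mean per cell need a 2-fold ratio only, without an interval, so they are not calls by the main rule. These means weigh cells with a shared barcode like any other cell. In GsdmdFL/FL -IR against control, calls higher and lower were 244 and 521 without mitochondrial and selection genes in the scale, 261 and 449 with TMM, 272 and 1459 with 20 UMIs per gene, 432 and 1803 with 1 UMI, 278 higher as a mean of CPM per cell, 85 and 170 in cells at or below 5% mitochondrial share, and 540 lower above it. Between the irradiated libraries 17 and 59 were called with at most 25% mitochondrial share, 91 higher as a mean per cell, 49 higher with 20 UMIs, 113 higher with 1 UMI, 123 lower above 5% mitochondrial share and 47 lower without the deepest cells. In Gsdmd∆Hep-IR against control, TMM gave 128 and 594, the mean per cell 178 higher, 1 UMI 257 higher, a mitochondrial share of at most 25% 257 lower, cells above 5% 551 lower and no deepest cells 391 lower. At or below 5% mitochondrial share the medians were -0.52 for P450 genes, -0.62 for fatty acid oxidation and -2.80 for lipid synthesis, the last -2.50 as a mean per cell. The metallothionein median was 2.75 with 20 UMIs and -0.71 with 1 UMI per gene, where rare zinc transporters enter. As a mean per cell, the ratios of Apoa4 (0.79), Cyp2e1 (0.70), Serpina7 (1.40), Igfbp2 (0.35) and Malat1 (0.64) turned between the irradiated libraries. Without the deepest cells Cyp2e1 (0.11) turned there and Cyp2f2 (1.15) against control, and at or below 5% mitochondrial share Fth1 (0.02) turned against control.

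Depth limits Gsdmd-scale transcripts: with 93827 UMIs in Gsdmd∆Hep-IR hepatocytes, a count of 0 allows up to 32.0 CPM.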

Other observations

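Further gene groups of the hepatocytes are given for GsdmdFL/FL -IR against GsdmdFL/FL -Ctrl, where the median log2 ratio of all genes was -0.79. Of all genes compared 7.23% were called higher and 41.6% lower. Of 13 liver transcription factors 1 was called higher and 4 lower (median -0.37, and 0.17 with TMM factors). Cebpa, a C/EBP factor of the mature hepatocyte, stood at 185 and 68.5 CPM. Nr1i3, the xenobiotic receptor CAR, stood at 49.5 and 99.6 CPM, on the edge of the 2-fold limit. Of 13 genes of chemokines, cytokines and their signalling 5 were called higher and 2 lower (median 0.43). Agt, the angiotensin precursor, was 3.13-fold higher, at 286 and 894 CPM, with 6.97 CPM in the other cells of the irradiated library. Of 7 class I MHC genes 3 were called lower and 0 higher (median -0.69), a call that 0 of them kept with TMM factors. Of 13 genes of the amino acid and endoplasmic reticulum stress response 1 was called higher (median 0.26), and 6 with TMM factors.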
